A study of Homo sapiens with 3 samples.

Results

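Heat-shock-high invaded cells are the 310 cells of the stretched bottom library with the largest share of UMIs (unique molecular identifiers, each standing for 1 captured RNA molecule) from the heat shock genes HSPA1A, HSPA1B, DNAJB1, HSPH1 and DNAJB4. They were taken from 1550 bottom cells with at least 10000 UMIs and at most 20% mitochondrial UMIs, and the 310 cells of lowest share were set against them. All 3 libraries together listed 54788 barcodes, of which 20182 passed the same filter. The cells were chosen by measured values, so the levels of the 5 selecting genes in them are a description and carry no test. A cell set defined by a score is a range and not a cell type.

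The cells were HCT116, a human colorectal carcinoma line, with a histone H2B-GFP label, grown in a 2-channel organ-on-chip. The stretched bottom library held GFP-sorted cells that had invaded into the lower channel of chips under peristalsis-like stretch for 6 days. The stretched top library held cells of the upper channel of such chips, and the not stretched top library held upper-channel cells of chips without stretch. Cells were collected with trypsin and sorted before capture, with 1 library for each group. Without replicates, no p-value is given, and the 95% intervals (exact) cover counting error only.

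Heat shock factor 1 (HSF1) is the transcription factor that switches on chaperone genes when unfolded proteins accumulate. Its best known targets encode HSP70 proteins (HSPA1A, HSPA1B), the J-domain co-chaperones that hand clients to them (DNAJB1, DNAJB4), the HSP110 nucleotide exchange factor HSPH1 and the HSP70 adaptor BAG3. HSF1 binds repeats of the letters nGAAn in alternating orientation, and in cultured tumour lines part of this program is active without heat. Genes of G2 and mitosis, in turn, often carry a cell cycle homology region near their start, through which they are repressed outside those phases.

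The promoters of the genes on which the results turn are shown because heat shock units and cell cycle letters were the motifs searched in the chaperone and mitotic genes described below. Each runs 5′ to 3′ from 250 bases before to 50 bases after a RefSeq transcript start (GRCh38.p14). In the first 4, capitals mark facing heat shock units, searched as GAANNTTC or TTCNNGAA, a pattern that reads the same on both strands. In the last 2, capitals mark the cell cycle homology region, searched as TTTGAA on either strand (TTCAAA).
HSPA1B, chr6:31827488-31827787, plus strand: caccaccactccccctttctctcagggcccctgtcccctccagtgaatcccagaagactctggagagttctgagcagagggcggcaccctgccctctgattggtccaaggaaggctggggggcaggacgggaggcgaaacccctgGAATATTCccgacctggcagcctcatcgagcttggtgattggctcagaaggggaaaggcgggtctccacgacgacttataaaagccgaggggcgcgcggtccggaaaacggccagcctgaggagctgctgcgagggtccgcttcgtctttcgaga
DNAJB1, chr19:14518348-14518647, minus strand: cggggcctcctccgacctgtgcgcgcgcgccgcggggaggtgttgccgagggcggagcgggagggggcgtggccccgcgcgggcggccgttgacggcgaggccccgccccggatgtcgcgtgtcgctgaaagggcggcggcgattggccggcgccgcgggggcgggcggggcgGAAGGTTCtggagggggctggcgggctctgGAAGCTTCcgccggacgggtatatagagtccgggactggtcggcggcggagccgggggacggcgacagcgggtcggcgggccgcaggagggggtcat
DNAJB4, chr1:78004689-78004988, plus strand: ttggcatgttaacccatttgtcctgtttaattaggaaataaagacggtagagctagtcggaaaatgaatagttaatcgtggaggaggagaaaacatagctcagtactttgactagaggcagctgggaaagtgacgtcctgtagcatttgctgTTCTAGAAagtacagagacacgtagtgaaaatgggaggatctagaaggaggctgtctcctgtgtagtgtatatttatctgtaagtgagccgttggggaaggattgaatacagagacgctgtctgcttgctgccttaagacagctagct
HSPA8, chr11:123062087-123062386, minus strand: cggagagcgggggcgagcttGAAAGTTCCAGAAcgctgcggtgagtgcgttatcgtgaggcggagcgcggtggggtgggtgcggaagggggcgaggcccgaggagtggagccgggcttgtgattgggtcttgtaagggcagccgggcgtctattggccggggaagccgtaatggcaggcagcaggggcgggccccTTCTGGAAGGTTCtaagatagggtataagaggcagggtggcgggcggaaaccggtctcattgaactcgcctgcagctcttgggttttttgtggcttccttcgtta
PLK1, chr16:23678639-23678938, plus strand: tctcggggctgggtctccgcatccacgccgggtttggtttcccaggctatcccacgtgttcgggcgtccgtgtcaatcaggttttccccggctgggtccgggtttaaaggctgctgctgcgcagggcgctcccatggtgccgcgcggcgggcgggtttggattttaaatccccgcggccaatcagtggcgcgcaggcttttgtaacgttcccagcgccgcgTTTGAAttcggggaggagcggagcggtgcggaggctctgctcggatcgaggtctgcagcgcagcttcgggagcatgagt
GTSE1, chr22:46296620-46296919, plus strand: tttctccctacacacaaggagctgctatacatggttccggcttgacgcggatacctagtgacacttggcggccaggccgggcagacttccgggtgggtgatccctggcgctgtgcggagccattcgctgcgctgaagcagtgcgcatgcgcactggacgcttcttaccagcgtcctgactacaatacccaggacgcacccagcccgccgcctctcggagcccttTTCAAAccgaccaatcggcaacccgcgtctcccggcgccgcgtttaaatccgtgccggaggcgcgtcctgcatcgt

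Facing heat shock units were found in 13.5% of all 35116 promoters of the RefSeq table and in 16 of 34 promoters of the HSF1 program outside the selecting genes (47.1%). They were found in 5 of 8 promoters of the selecting genes and in 7 of 58 promoters of G2/M genes (12.1%). For DNAJB1 and DNAJB4, with 3 and 2 listed starts, a start with a match is shown, and the first listed start of each had none. In the DNAJB1 window shown the 2 matches began 77 and 47 bases before the start. No match lay in the HSPH1 or BAG3 window, which says only that these letters are not in it. The cell cycle homology letters were found in 15.2% of all promoters, in 36 of 58 promoters of G2/M genes (62.1%) and in 1 of 34 promoters of the HSF1 program. Among the selecting genes they were in 1 of 8 promoters, that of HSPH1. A match is a description of the sequence and not a bound site, and neighbouring promoters of 1 gene can overlap. The HSPA8 window held 4 overlapping matches in 2 places.

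The share of the selecting genes was continuous, with no gap between the sets. The heat-shock-high cells had a median share of 0.0723% and the heat-shock-low cells 0.0193%. The lowest share inside the high set was 0.0594% and the nearest outside it was 0.0592%. On the low side, the highest share inside was 0.0256% and the nearest outside was 0.0256%. Within 10% of the upper limit, on both sides, lay 189 cells, of which 83 were inside. The highest cell stood apart at 0.388% of 57729 UMIs, with 114 HSPA1B, 65 HSPH1 and 43 DNAJB1 UMIs, and the next cell had 0.228%. The 10 highest cells were all called G2/M.

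**Figure D1:**
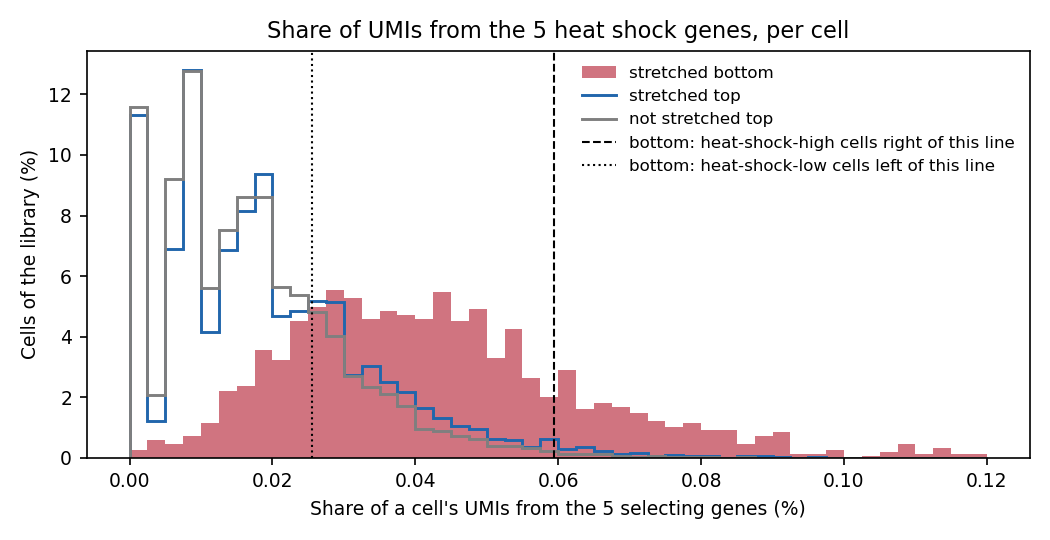
Share of each cell's UMIs from the 5 selecting genes (horizontal axis, %) against the share of the library's cells (vertical axis, %) in bins, for the stretched bottom (filled), stretched top and not stretched top libraries (lines). Dashed and dotted lines mark the limits of the high (0.0594%) and low (0.0256%) bottom sets, and cells beyond the axis (the highest at 0.388%) are not drawn.

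HSPA1B and HSPH1 carried the choice. Of all selecting-gene UMIs in the 1550 bottom cells, HSPA1B gave 38.6%, HSPH1 34.0%, DNAJB1 19.9%, DNAJB4 7.33% and HSPA1A 0.162%. HSPA1B (ENSG00000204388, chromosome 6, 31827735 to 31830255, hg38) had 1, 15 and 114 UMIs in the lowest, median and highest heat-shock-high cell, against 0, 2 and 15 in heat-shock-low cells. Summed over cells it stood at 324 CPM (counts per megacount, the gene's UMIs scaled to an equal total in every set), against 66.6 CPM. HSPH1 (ENSG00000120694, chromosome 13, 31134974 to 31162388) had 1, 12 and 65 UMIs per high cell, against 0, 2 and 10 per low cell, and 259 CPM against 58.8 CPM.

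DNAJB1, which stimulates the ATPase of HSP70 (ENSG00000132002, chromosome 19, 14514770 to 14529770), had 0, 6 and 43 UMIs per high cell, against 0, 1 and 8 per low cell, and 150 CPM against 42.9 CPM. DNAJB4, a related J-domain protein (ENSG00000162616, chromosome 1, 77979175 to 78017964), had 0, 2 and 24 UMIs per high cell, against 0, 0 and 5 per low cell, and 51.3 CPM against 17.9 CPM. For each gene the ranges of single cells overlapped between the sets, although the choice was made on their sum. These differences follow from the rule.

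Measured without themselves, the selecting genes still differed between sets, by less. When cells were chosen by the other selecting genes only, HSPA1B stood at 263 CPM in high and 116 CPM in low cells, 2.26-fold (95% interval 2.13 to 2.40). On the same basis DNAJB1 stood at 136 and 60.1 CPM, 2.26-fold (2.08 to 2.47), HSPH1 at 208 and 119 CPM, 1.75-fold (1.64 to 1.86), and DNAJB4 at 43.6 and 27.2 CPM, 1.60-fold (1.41 to 1.83). From cell to cell the genes moved together only weakly. At 10000 UMIs per cell, Spearman's rho over the 1550 cells was 0.18 between HSPA1B and DNAJB1 and 0.16 between HSPA1B and HSPH1, in counts of a few UMIs per cell from 1 library.

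HSPA1A hardly took part. It had 56 UMIs in the 1550 cells, 37 of them in high and 4 in low cells. Of the 37, 30 lay in high cells that held UMIs of at least 4 of 12 endothelial markers. The 4 such high cells had 17, 11, 2 and 0 HSPA1A UMIs. Without such cells HSPA1A stood at 0.424 CPM in high and 0.331 CPM in low cells. HSPA1A and HSPA1B encode nearly the same protein, and 70.4% of the 91-base stretches of the HSPA1A transcript also occur in HSPA1B. Within the last 500 bases, which 3′ libraries read, 14.4% of the HSPA1A stretches and 0% of the HSPA1B stretches are shared. How reads that match both genes were treated is not given in the sources used here. HSPA6, a strictly stress-induced HSP70, had 0 UMIs in both sets, which allows up to 0.179 CPM in high and 0.247 CPM in low cells.

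Outside the selecting genes, part of the HSF1 program was higher in heat-shock-high cells. Of its 25 listed genes 23 were measured (at least 10 CPM in either set). All 23 had ratios above 0 on the log2 scale and 8 were past 1.5-fold higher, against 4.03% of all 8546 measured genes. No member was past 1.5-fold lower, against 3.97% of all genes. The median log2 ratio of the list (1 CPM added) was 0.53, and that of all genes 0.05. When 5000 UMIs per cell chose the cells and the remaining UMIs were measured, 1 of 23 members was past 1.5-fold, against 1.5% of all genes, and the list's median was 0.29. When the share was taken at 10000 UMIs per cell, 2 of 23 were past it.

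BAG3, the co-chaperone that links HSP70 to autophagy (ENSG00000151929, chromosome 10), had 0, 3 and 15 UMIs in the lowest, median and highest high cell, against 0, 1 and 7 per low cell. Its level was 62.5 CPM in high and 27.1 CPM in low cells, 2.30-fold (2.03 to 2.61). HSPA8, the constitutive HSP70 (ENSG00000109971, chromosome 11), had 4, 61 and 351 UMIs per high cell, against 0, 22 and 112 per low cell. Its level was 1251 CPM against 667 CPM, 1.88-fold (1.83 to 1.92). Both genes were thus higher in the typical cell and not only in a few, while the single-cell ranges overlapped.

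DNAJA1, the main partner of HSPA8, stood at 485 CPM in high and 276 CPM in low cells. The calcyclin-binding gene CACYBP (352 against 201 CPM), the HSP90 co-chaperones CHORDC1 (185 against 107 CPM) and STIP1 (236 against 139 CPM) and the heat-inducible zinc finger gene ZFAND2A (33.5 against 18.4 CPM) were also past the threshold. Of 14 genes of HSP90 and its co-chaperones 5 were past 1.5-fold higher and 0 lower, against 4.03% and 3.97% of all genes. All 10 chaperonin genes and all 31 proteasome subunits had ratios above 0, but none of them was past 1.5-fold, and their medians were 0.43 and 0.27.

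HSPB1, a small heat shock protein that holds unfolded clients, stood at 732 CPM in high and 666 CPM in low cells, under the threshold. HSF1 itself stood at 70.7 CPM against 62.6 CPM, and HSF2 at 17.5 CPM against 18.8 CPM. Of the 24 measured genes of the unfolded protein and integrated stress responses 0 were past 1.5-fold higher and 5 were past 1.5-fold lower, beside 3.97% of all genes. Among these were CHAC1, a glutathione-degrading enzyme (4.48 CPM in high and 12.5 CPM in low cells), DDIT4, an mTORC1 inhibitor (31.8 against 79.3 CPM), and TRIB3, a pseudokinase (34.1 against 57.2 CPM).

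Of the 12 largest ratios outside the rule, 7 belonged to genes of G2 and mitosis. Of 54 G2/M genes, 50 were past 1.5-fold higher in heat-shock-high cells and 0 lower, against 4.03% and 3.97% of all genes. The median log2 ratio of the list was 1.59, beside 0.05 for all genes. AURKA, the spindle pole kinase (ENSG00000087586, chromosome 20, 56369389 to 56392337), had 0, 3 and 23 UMIs in the lowest, median and highest high cell, against 0, 0 and 9 per low cell. Its level was 83.1 CPM against 15.2 CPM, 5.48-fold (4.69 to 6.42).

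PLK1, a mitotic kinase that was not on the list used for phase calls (ENSG00000166851, chromosome 16), had 0, 4 and 32 UMIs per high cell, against 0, 0 and 14 per low cell. Its level was 111 CPM against 21.2 CPM, 5.25-fold (4.61 to 6.01). GTSE1, which restrains p53 in G2 (ENSG00000075218, chromosome 22), stood at 82.5 against 15.3 CPM, the proliferation marker MKI67 at 207 against 47.7 CPM, and NEK2, a centrosome kinase, at 46.6 against 9.73 CPM. DLGAP5, a spindle protein, stood at 107 against 24.2 CPM and KIF20A, a mitotic kinesin, at 20.1 against 3.88 CPM. At the median low cell each of these genes had 0 UMIs, so the sets differed in how many cells held the transcript as well as in its sum. These UMIs per cell were not brought to equal depth, and the part of depth in them was not tested.

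Phase calls restated this contrast, as they were scored from the same S phase and G2/M gene lists. After each cell was thinned to 10000 UMIs, 240 of 310 heat-shock-high cells were called G2/M (77.4%, exact binomial 95% interval 72.4 to 82.0%), against 67 of 310 low cells (21.6%, 17.2 to 26.6%). G1 was called in 7.10% of high and 47.7% of low cells, and S in 15.5% of high and 30.6% of low cells. Of 41 measured S phase genes 5 were past 1.5-fold higher, against 4.03% of all genes, with RRM2, the ribonucleotide reductase subunit, at 186 against 83.1 CPM. When the sets were taken within each called phase and pooled, 0 of the 41 were, as at a like G2/M level. Within G1 alone (76 cells a set) 18 of 34 measured S phase genes were past 1.5-fold higher, against 8.58% of all genes. Within S alone 1 of 41 was (3.09% of all genes), and within G2/M alone 0 of 40 (1.09%). The sets also differed in depth and mitochondrial share, with a median of 51122 UMIs and 3.71% mitochondrial in high cells and 39003 UMIs and 4.80% in low cells. At 10000 UMIs per cell the median high cell had 3238.5 genes and the median low cell 3138.0.

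**Figure D2:**
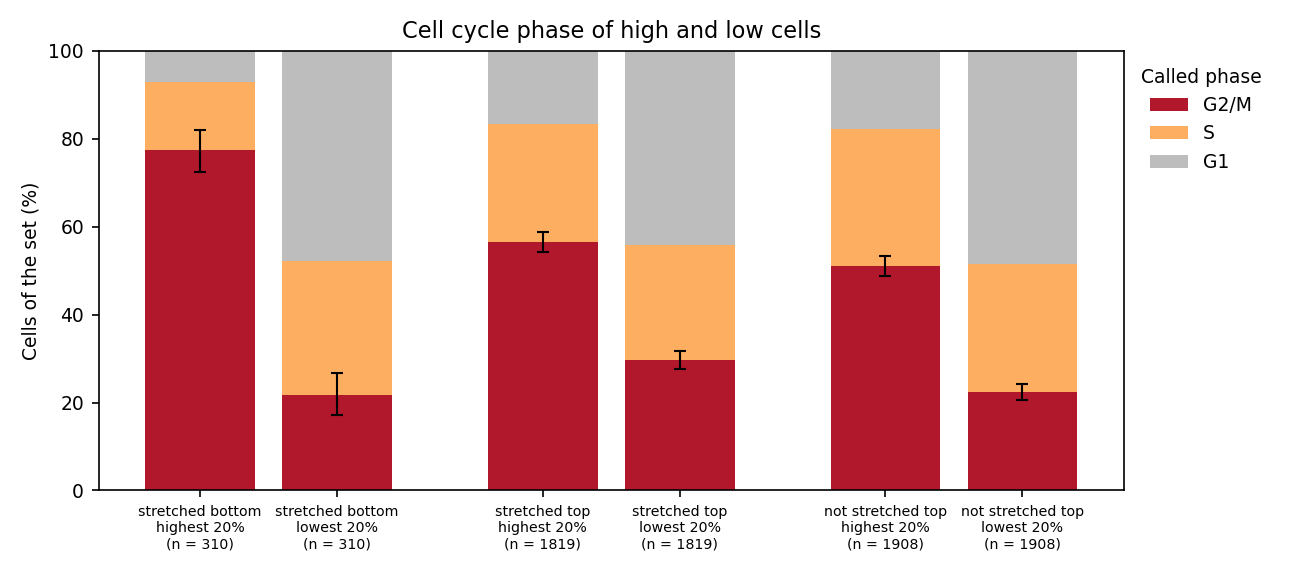
Share of cells called G2/M, S or G1 (vertical axis, %) in the highest and lowest 20% by heat shock share of each library, with exact binomial 95% intervals for the G2/M share. The G2/M share of high and low cells was 77.4% and 21.6% in the bottom library, 56.5% and 29.6% in the stretched top library, and 51.0% and 22.3% in the not stretched top library.

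Cells were then compared at like levels of the G2/M list. With the highest and lowest 20% taken within 20 bins of the cells' G2/M level, 53 of 8416 genes were past 1.5-fold higher (0.63%) and 27 lower (0.321%). Of the 54 G2/M genes 0 were higher and 1 lower, with a median of 0.04, as this choice of cells was made to bring about. PLK1, which was not used in the matching, stood at 68.5 CPM in high and 64.4 CPM in low cells, 1.06-fold (0.969 to 1.17). AURKA stood at 55.3 against 42.5 CPM, 1.30-fold (1.17 to 1.45).

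In the matched sets the selecting genes kept most of their difference, again by the rule, with HSPA1B at 308 CPM in high and 81.8 CPM in low cells. The HSF1 program had 3 of 23 members past 1.5-fold higher and 0 lower, with a median of 0.33 beside 0.07 for all genes. Of the 14 genes of HSP90 and its co-chaperones 0 were past 1.5-fold, with a median of 0.26. BAG3 stood at 57.0 against 30.1 CPM, 1.89-fold (1.68 to 2.14), and HSPA8 at 1185 against 774 CPM, 1.53-fold (1.49 to 1.57). DDIT4 stood at 31.9 against 68.7 CPM and CHAC1 at 4.70 against 12.9 CPM. BAG3, HSPA8, DDIT4 and CHAC1 were thus still past 1.5-fold at a like G2/M level. Genes of the G2/M list were used in the matching, so their smaller ratios there follow from the choice of cells. The matched ratios were measured in the same UMIs that chose the cells. Without matching, 5000 UMIs choosing and the rest measured gave 1.42-fold for HSPA8 (1.39 to 1.46), under the threshold. BAG3 was then 1.53-fold (1.36 to 1.73).

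**Figure D3:**
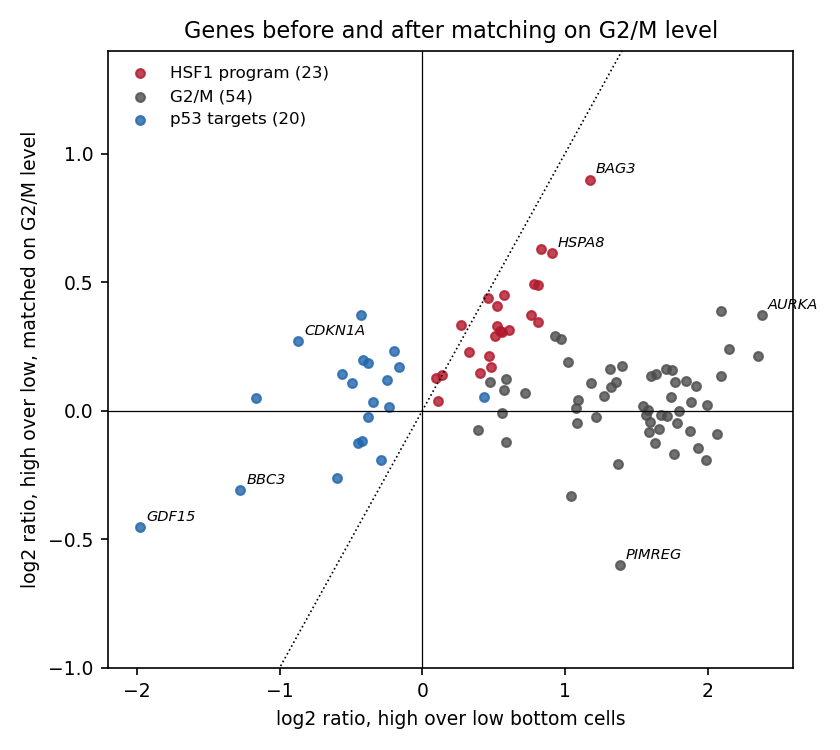
Log2 ratio of CPM (1 CPM added) of high over low bottom cells (horizontal axis) against the same ratio with cells matched on G2/M level (vertical axis), for the measured genes of the HSF1 program (23), G2/M (54) and p53 target (20) lists. Each point is a gene and the dotted line marks equal ratios. Medians were 0.53, 1.59 and -0.42 before matching and 0.33, 0.04 and 0.05 after it.

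Genes lower in heat-shock-high cells included p53 targets and epithelial markers. GDF15, a secreted stress cytokine and p53 target (ENSG00000130513, chromosome 19, 18374731 to 18389176), had 0, 0 and 39 UMIs in the lowest, median and highest high cell, against 0, 1 and 97 per low cell. Its level was 41.1 CPM against 165 CPM, 4.01-fold lower (3.68 to 4.38). Of 20 p53 target genes 5 were past 1.5-fold lower, against 3.97% of all genes, and 0 higher, with a median of -0.42. BBC3, a BH3-only death gene, stood at 11.2 against 28.6 CPM, TP53I3, an oxidoreductase, at 19.0 against 44.0 CPM, and the cell cycle inhibitor CDKN1A at 73.1 against 135 CPM.

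The p53 list lost this difference at a like G2/M level. There 0 of its 20 members were past 1.5-fold in either direction and the median was 0.05. CDKN1A stood at 104 CPM in high and 86.1 CPM in low matched cells, and GDF15 at 72.1 against 99.03 CPM.

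Of 11 measured epithelial markers, 4 were past 1.5-fold lower, against 3.97% of all genes, and 0 higher, with KRT19, a simple epithelial keratin, at 1191 against 1970 CPM and ELF3, an epithelial transcription factor, at 16.9 against 34.0 CPM. EPCAM, the epithelial adhesion molecule (ENSG00000119888, chromosome 2), stood at 469 against 522 CPM and was found in 98.4% of high and 98.1% of low cells. Most cells of both sets thus held this epithelial marker. The iron storage gene FTH1 stood at 4514 against 7035 CPM and the mitochondrial MT-CYB at 2388 against 3646 CPM. At a like G2/M level 0 of the 11 epithelial markers were past 1.5-fold lower and 1 higher, with a median of -0.09, and KRT19 stood at 1452 against 1561 CPM.

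Several levels ran in 1 direction over the range of the share and others did not. Over 5 equal groups of 310 bottom cells, from the lowest share to the highest, the G2/M share was 21.6%, 33.2%, 50%, 60.6% and 77.4%. HSPA8 stood at 667, 798, 958, 1014 and 1251 CPM and AURKA at 15.2, 27.7, 38.6, 52.0 and 83.1 CPM. BAG3 stood at 27.1, 29.8, 40.2, 44.4 and 62.5 CPM, and GDF15 at 165, 115, 69.5, 67.7 and 41.1 CPM. Each of these series ran in 1 direction over all 5 groups. CDKN1A did not, at 135, 81.3, 95.5, 89.2 and 73.1 CPM, nor did VIM, at 14.8, 18.7, 8.11, 8.35 and 79.7 CPM. HSF1 stood between 62.6 and 70.7 CPM in every group.

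**Figure D4:**
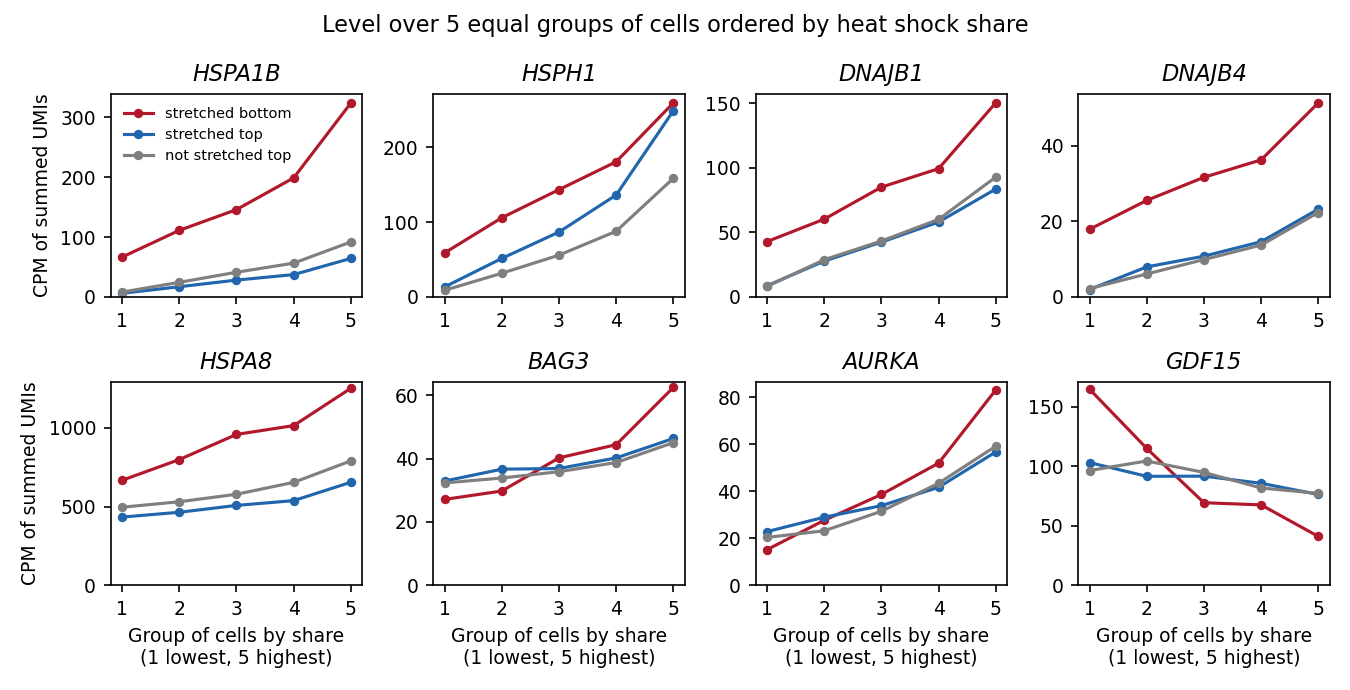
CPM of summed UMIs (vertical axes) over 5 equal groups of cells ordered by heat shock share from lowest to highest (horizontal axes), for 8 genes in the stretched bottom, stretched top and not stretched top libraries. In bottom cells HSPA8 stood at 667 CPM in group 1 and 1251 CPM in group 5, and GDF15 at 165 and 41.1 CPM. The panels HSPA1B, HSPH1, DNAJB1 and DNAJB4 show genes of the rule itself.

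The same choice was made in the top libraries. Their cells were shallower, with a median of 14032 UMIs in the stretched top and 15415 UMIs in the not stretched top library, against 46529 UMIs in the bottom library. At 10000 UMIs per cell the selecting genes had a mean of 1.97 UMIs in stretched top cells and 1.72 in not stretched top cells, so a share there rests on few UMIs. In the stretched top library 192 of 8840 genes were past 1.5-fold higher in high cells (2.17%) and 26 lower (0.294%). In the not stretched top library 204 of 9243 were higher (2.21%) and 35 lower (0.379%). G2/M genes led there too, with 46 of 54 higher in the stretched top and 49 of 54 in the not stretched top library (medians 0.88 and 0.99). The HSF1 program had 4 and 3 of 23 members higher, with medians of 0.47 and 0.43.

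Of the 344 genes past 1.5-fold higher in the bottom sets, 162 (47.1%) were also past it in the stretched top library, which is 84.4% of the genes higher there. In the not stretched top library 179 (52.0%) were, 87.7% of those higher there. Of the 339 genes past 1.5-fold lower in the bottom sets, 7 (2.06%) were also lower among stretched top cells. These were 26.9% of the 26 genes lower there. Not stretched top cells shared 18 (5.31%), which is 51.4% of the 35 genes lower there. Of all measured genes 0.294% and 0.379% were lower in these libraries, in the same order. No bottom call was past the threshold the other way in either top library. Counting noise differs with depth, and its part in these numbers of lower genes was not tested.

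**Figure D5:**
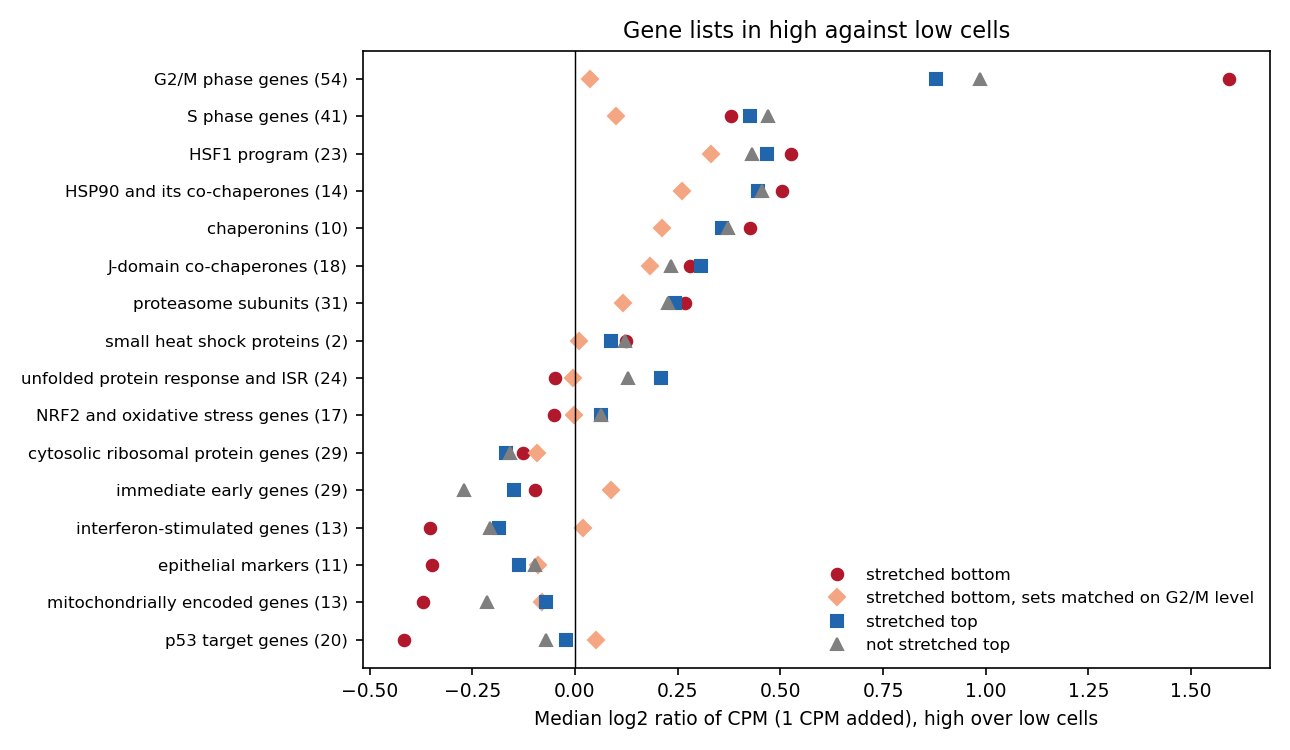
Median log2 ratio of CPM (1 CPM added) of high over low cells (horizontal axis) for 16 gene lists (vertical axis, with the number of genes measured in the bottom library), in the stretched bottom library, its sets matched on G2/M level, the stretched top library and the not stretched top library. The G2/M list had medians of 1.59, 0.04, 0.88 and 0.99 in that order, and the HSF1 program 0.53, 0.33, 0.47 and 0.43.

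With the choice made on 5000 UMIs per cell in every library and the remaining UMIs measured, the number of choosing UMIs was equal between libraries. Those of the selecting genes among them were not, being fewer in the top libraries, and the part of this in the ratios was not tested. HSPA1B stood at 262 CPM in high and 135 CPM in low bottom cells, 1.94-fold (1.83 to 2.05). In the stretched top library it stood at 40.8 against 24.5 CPM, 1.66-fold (1.48 to 1.87), and in the not stretched top library at 55.3 against 41.8 CPM, 1.32-fold (1.22 to 1.44). BAG3 stood at 51.1 against 33.3 CPM in bottom cells, 1.53-fold (1.36 to 1.73), and its ratio was 1.13 (1.03 to 1.26) and 1.19 (1.08 to 1.31) in the top libraries. HSPH1 stood at 205 against 120 CPM in bottom cells, 1.71-fold (1.60 to 1.81), while stretched top cells gave 1.92-fold (1.80 to 2.04) and not stretched top cells 1.61-fold (1.51 to 1.73). The order of the libraries thus differed between genes, with BAG3 highest in bottom cells and HSPH1 highest in stretched top cells. Of the G2/M genes 41 of 54 were past 1.5-fold in bottom cells (background 1.5%), 21 in stretched top cells (background 0.603%) and 15 in not stretched top cells (background 0.347%).

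Bottom cells held more of the selecting transcripts than top cells at equal depth. At 10000 UMIs per cell, 27.9% of bottom cells (25.7 to 30.2%) had at least 6 UMIs of the 5 genes, against 3.84% of stretched top cells (3.45 to 4.25%) and 2.25% of not stretched top cells (1.97 to 2.57%). The variance of these UMIs was 9.87 around a mean of 4.37 in bottom cells, against 2.93 around 1.97 in stretched top and 2.32 around 1.72 in not stretched top cells. No cell class known to lack these genes was analysed here, so the part of free RNA was not tested.

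Set against the high cells of the stretched top library, heat-shock-high bottom cells had HSPA1B at 324 against 64.4 CPM and HSPA8 at 1251 against 654 CPM. HSPH1 was close, at 259 against 248 CPM, 1.04-fold (1.00 to 1.08). The HSF1 program had 9 of 23 members past 1.5-fold higher in bottom high cells, against 5.17% of all genes, and 5 of 23 when low cells were compared with low cells, against 5.87%. Against the not stretched top library the counts were 15 of 23 for high cells (5.07% of all genes) and 7 of 23 for low cells (5.62%). The G2/M list had 13 and 11 of 54 genes higher and 0 lower among high cells, and 0 and 1 of 53 higher and 7 lower in each comparison among low cells. Over all genes, 1154 of 8893 and 1949 of 9191 were past 1.5-fold lower among high cells. Among low cells 628 of 8853 and 1413 of 9176 were, so lower genes were common beyond this list. Depth and phase shares differ between the libraries' sets, and their part in these counts was not tested.

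A few cells with endothelial markers lay among the sets. In the bottom library 7 cells held UMIs of at least 4 of 12 endothelial markers, 4 in the high and 2 in the low set, and 6 of the 7 had 0 EPCAM UMIs. These 6 cells held 32 of the library's 56 HSPA1A UMIs and 8 of its 13335 HSPA1B UMIs. They also held 1268 of 2050 UMIs of VIM, the intermediate filament of mesenchymal and endothelial cells. The summed endothelial markers stood at 138 CPM in high and 140 CPM in low cells, mostly EGFL7, and 1 of 12 was at 0 in each set. Fibroblast markers summed to 8.06 against 12.5 CPM, with 6 and 5 of 11 at 0, and leukocyte markers to 1.253 against 1.320 CPM, with 7 and 6 of 11 at 0.

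VIM stood at 79.7 CPM in high and 14.8 CPM in low cells, but 521 of its 1336 UMIs in high cells came from 1 cell. Without the 7 marker cells it stood at 15.3 against 9.85 CPM. VIM was found in 29.03% of high cells (24.0 to 34.4%) and 17.7% of low cells (13.7 to 22.5%), and at 10000 UMIs per cell in 11.9% and 6.77%. DKK1, a secreted WNT antagonist, stood at 628 against 380 CPM. With 5000 UMIs choosing the cells and the rest measured, DKK1 stood at 604 against 478 CPM, 1.26-fold (1.22 to 1.30). The same choice gave 1.24-fold in the stretched top and 1.12-fold in the not stretched top library. Of the 310 bottom cells of highest DKK1 share, 75 were heat-shock-high and 38 were heat-shock-low. These were 24.2% of high cells (19.5 to 29.4%) and 12.3% of low cells (8.82 to 16.4%), beside 20% of all kept bottom cells.

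Some extreme ratios rested on single cells. Of the 344 genes past 1.5-fold higher 6, and of the 339 lower 10, had over 50% of the set's UMIs from 1 cell. MATN1, C14orf39 and SPRR2D, the 3 largest ratios outside the rule, had 98.9%, 84.3% and 99.1% of their high-cell UMIs in 1 cell, and CR1, the smallest, had 98.9% of its low-cell UMIs in 1 cell. Spread over many cells, with no cell above 10% of the set's UMIs, were 330 of the higher and 279 of the lower genes. Among the 12 smallest ratios, GDF15 and RGS6, a regulator of G protein signalling (16.5 CPM in high and 59.0 CPM in low cells), were of this kind.

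Few barcodes were shared between libraries, and high cells carried them more often than low cells. The bottom library shared 61 of its 3513 barcodes (1.74%) with the stretched top and 99 (2.82%) with the not stretched top library. Of the 310 high cells 13 and 25 carried such a barcode, against 6 and 6 of the 310 low cells. Without cells carrying such a barcode 345 genes were higher and 360 lower.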

How the data were processed

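Single-cell 3′ RNA libraries of GFP-sorted HCT116 H2B-GFP cells were analysed, 1 for each of the 3 groups, with no replicates. The deposited values are UMI counts, not normalized, which the authors made with Cell Ranger 7.0.0 per the file headers, on hg38 per the submitters' processing notes. The annotation version and the treatment of reads that match several genes are not given in the sources used here. The matrices list 19912 features and barcodes of at least 500 UMIs.

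Cells with at least 10000 UMIs and at most 20% mitochondrial UMIs were kept, 1550 of 3513 bottom, 9094 of 25169 stretched top and 9538 of 26106 not stretched top barcodes. Library totals were 79984521, 225094841 and 235348538 UMIs in that order. UMIs were summed over the cells of a set and scaled to CPM. Genes of at least 10 CPM in either set were compared by the ratio of CPM, with 1 CPM added for log2 values and a threshold of 1.5-fold. Intervals are exact Poisson for levels, exact conditional binomial for folds and Clopper-Pearson for shares, all at 95%, and a count of 0 allows up to 3 counts.

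Phases were called with scanpy 1.11.5 after thinning to 10000 UMIs. No doublets were removed: Scrublet marked 3 of 1550 bottom cells (0.194%), too few for a working caller. TMM factors came from edgeR 4.0.16, and the ratio procedure was tested on simulated data. Named genes are the 12 largest and 12 smallest ratios outside the selecting genes, up to 4 members of each list, and EPCAM, VIM, DKK1, HSF1, HSF2 and the selecting genes; other genes were not named. The cells and lists were chosen with earlier results of these data known. Promoter sequences are from RefSeq (GRCh38.p14), and gene coordinates from GENCODE on hg38.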

Additional observations from a re-analysis of the deposited data

Results flagged for a closer look

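Bottom barcodes left out for having under 10000 UMIs (at most 20% mitochondrial) also carried the selecting genes. The 694 such barcodes, with a median of 1160 UMIs, had 521 CPM of the 5 genes summed (485 to 558), above the 157 CPM and 152 CPM of the like barcodes of the stretched top and not stretched top libraries. The kept cells had 458 CPM in the bottom library, 197 CPM in the stretched top and 176 CPM in the not stretched top library. Whether these barcodes hold cells or free RNA was not tested.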

How the results depend on the processing

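Reported were 344 genes higher and 339 lower, 8 HSF1 program and 50 G2/M genes higher, and 5 p53 targets lower. With the share from cells thinned to 10000 UMIs there were 210 higher, 127 lower and 2 HSF1 program genes. With sets taken within each called phase and pooled there were 58 higher, 76 lower, 5 HSF1 program, 5 G2/M and 2 p53 genes. Single phases, with fewer cells a set, gave 759 higher and 350 lower in G1, 264 and 451 in S, and 90 and 84 in G2/M. Of the G2/M genes 22 of 36 were higher within G1 (8.58% of all genes), 21 of 51 within S (3.09%) and 6 of 54 within G2/M (1.09%). Within 20 bins of G2/M level, chosen after seeing the data, there were 53 higher, 27 lower, 3 HSF1 program, 0 G2/M and 0 p53 genes, and the p53 median was 0.0507. With 5000 UMIs choosing, also chosen after seeing the data, there were 125 higher, 82 lower, 1 HSF1 program and 2 p53 genes. Tails of 10% gave 706 higher, 748 lower, 16 HSF1 program and 8 p53 genes, and tails of 33% gave 204 higher, 156 lower and 3 p53 genes. A minimum of 1 CPM gave 544 higher and 964 lower, and of 50 CPM 166 higher, 54 lower and 2 p53 genes. At a lower fold threshold there were 1421 higher, 1077 lower, 19 HSF1 program and 14 p53 genes, and at 2-fold 129, 65, 1 and 3. The share from HSPA1A and HSPA1B gave 219 higher and 425 lower. The number of lower genes was 123 within bins of UMIs, 160 with the share from DNAJB1, HSPH1 and DNAJB4, 208 with a higher UMI minimum, 687 with equal cell weights and 196 with 5 CPM added.

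Higher genes were 50.4% of those called, against 73.0% within bins of UMIs, 30.8% with equal cell weights, 54.3% with TMM and 55.8% with median-of-ratios scaling. Of 1114 values of 42 named genes over 28 alternatives, 4 reversed: TP53I3 (log2 0.0481) and CDKN1A (0.27) within bins of G2/M level, CDKN1A (0.0729) within each called phase, and VIM (-1.45) with the share from HSPA1A and HSPA1B. Another 92 no longer passed the threshold. The causes were not tested. No paired analysis was possible because each group is 1 library.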
